A study of Caenorhabditis elegans with 12 samples.

Results

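The genes described here are 9 transcription factors that set cell fates in the Caenorhabditis elegans embryo (end-1, end-3, ceh-51, tbx-37, pha-4, hlh-1, elt-1, lin-26 and pal-1) and hch-1, which encodes the protease of hatching. They were chosen by name as regulators and an enzyme read from embryos held inside adult hermaphrodites, 10 of the 46904 genes listed in the count table. The choice was made with earlier results of these data known, so shares of all genes set beside them are a description only. RNA was sequenced from whole animals at day 1 of adulthood, about 1000 pooled animals per library, after 4 h without food in a solution of a single salt. The groups were pmk-1(km25) mutants in 100 mM NaCl, pmk-1(km25) mutants in 100 mM KCl, wild-type N2 in 100 mM NaCl and N2 in 100 mM KCl, with 3 biological replicates each and 12 libraries in all. PMK-1 is a p38 MAP kinase of the worm's stress and immune signalling, and the series was made to find genes that respond to low potassium or depend on pmk-1. Swapping NaCl for KCl changes both cations, sodium and potassium.

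Adult hermaphrodites carry fertilised eggs in the uterus, so whole-animal RNA includes RNA of the embryos held there, whose stages the labels do not give. In these embryos maternal proteins and Wnt signalling divide the early blastomeres into founder cells, and zygotic factors then commit each founder: GATA factors make gut, T-box, NK-type and FoxA factors make the mesodermal precursor and the pharynx, a MyoD factor makes body wall muscle, and a further GATA factor with a zinc-finger protein makes epidermis. Late in development the epidermis secretes an apical matrix and cuticle, and HCH-1, an astacin metalloprotease, digests the eggshell. Several of the regulators are also active in adult tissue or laid down in oocytes, pha-4, lin-26 and pal-1 among them.

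Library totals ran from 8931797 to 11445709 counts. Levels are given as counts and as CPM, counts per 1000000 of the library total after TMM scaling. Of the listed genes, 13353 passed the filter on low counts. A gene could pass through the N2 libraries alone, as end-1 and hch-1 did, with at most 0.62 and 0.79 CPM in any pmk-1 library. ceh-51 and tbx-37 also passed through N2, with at most 2.69 and 2.28 CPM in any pmk-1 library. Such genes can hardly come out higher in pmk-1, so the numbers of low-count genes that fell or rose are partly set by the filter. Of 45 marker genes of 8 adult tissues, 40 were counted in all 12 libraries; the other 5 were 4 of the 10 sperm markers (spe-9, spe-11, gsp-3 and ssp-16) and the epidermal collagen rol-6. The pmk-1 gene had 180 to 242 counts in the pmk-1 libraries and 217 to 441 counts in the N2 libraries, ranges that overlap. The count table does not show which part of the gene the reads came from, so these counts do not check the deletion. Replicate 1 stood apart in both pmk-1 groups and in N2 NaCl, and replicate 3 in N2 KCl. In pmk-1 NaCl, chi-square over its degrees of freedom was 58.4 between replicates 1 and 2 and 4.88 between replicates 2 and 3, and in N2 KCl it was 8.66 between replicates 1 and 2 and 28.03 between replicates 2 and 3. Ribosomal RNA took 3.52% to 4.997% of counts in pmk-1 NaCl, 0.60% to 3.26% in pmk-1 KCl, 0.93% to 2.51% in N2 NaCl and 0.67% to 2.59% in N2 KCl; its part in the results was not tested beyond the fit with this share as a covariate. In these bulk samples, fewer embryos or embryonic cells and less RNA per cell cannot be told apart.

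The embryonic factors and hch-1 were lower in pmk-1 animals than in N2 in both salts, to very different degrees. In mean CPM, hch-1 was 143 times lower, end-1, ceh-51, hlh-1, pha-4 and elt-1 were between 11.4 and 3.28 times lower, tbx-37 was 3.37 times lower, end-3 was 2.38 times lower, lin-26 was 1.296 times lower and pal-1 was 1.297 times lower. In the mean of both salts 7 of the 9 tested genes fell by the edgeR quasi-likelihood test (Benjamini-Hochberg adjusted p under 0.05), where 19.5% of all tested genes fell. In NaCl 6 of 9 fell (10.1% of all tested genes) and in KCl 5 of 9 fell (9.18%). No tested member rose in any of these 3 comparisons, where 27.2%, 16.7% and 15.2% of all tested genes rose. For the members that passed the filter through N2, namely end-1, ceh-51, tbx-37 and hch-1, a rise could hardly be seen. The numbers of members that fell or rose, and the medians that follow, are thus partly set by the filter. The median log2 fold change of the 9 was -2.09 in the mean of both salts, -2.34 in NaCl and -2.19 in KCl, against 0.05, 0.06 and 0.02 over all tested genes. end-3, with 58 counts over all libraries, did not pass the filter and has no fitted value in the main test.

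**Figure D1:**
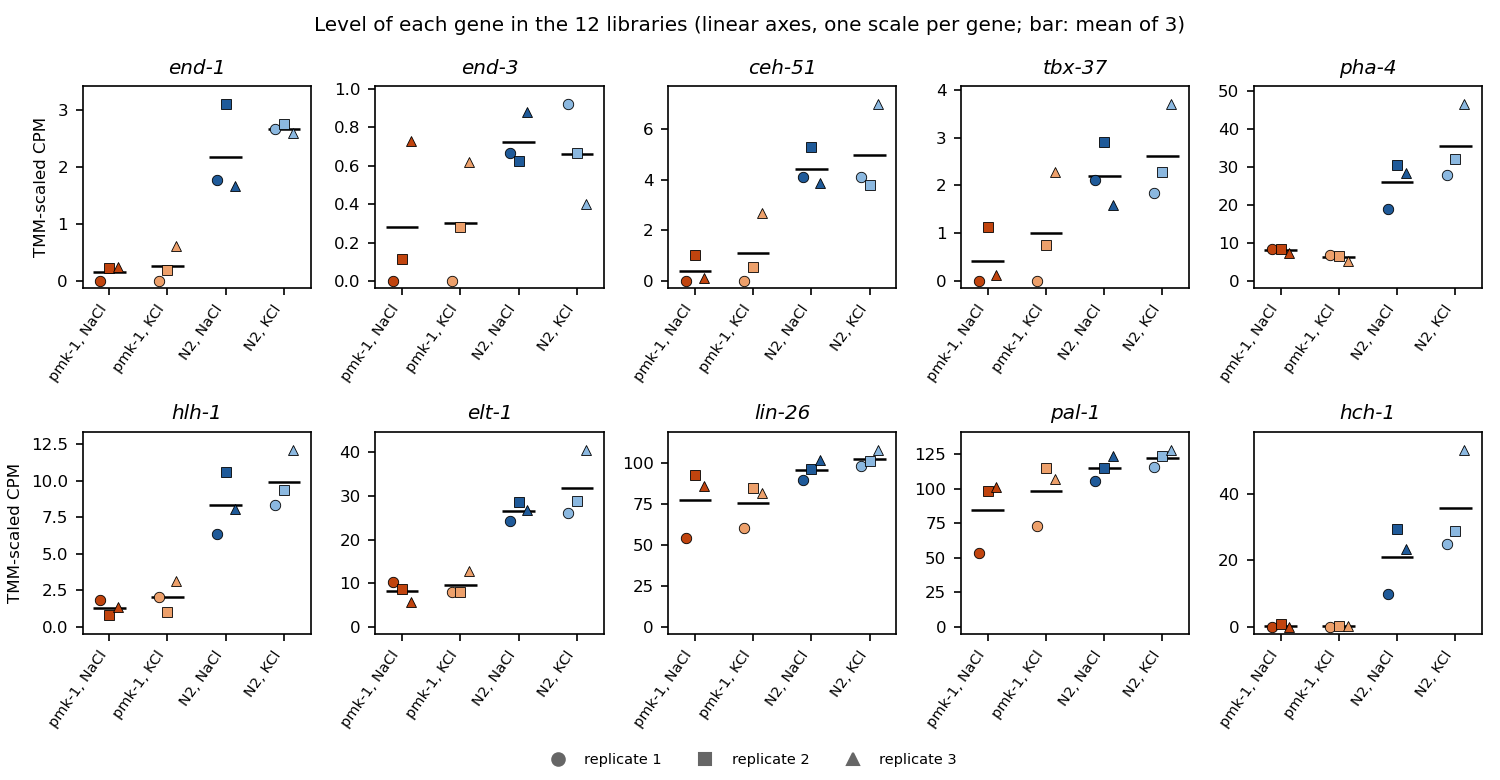
Level of the 10 genes in each library, in CPM scaled by TMM, with a linear axis of its own for each gene. Columns run pmk-1 NaCl, pmk-1 KCl, N2 NaCl and N2 KCl; marker shapes are replicates 1 to 3 and each bar is the mean of 3. All pmk-1 values of end-1, ceh-51, pha-4, hlh-1, elt-1 and hch-1 lie below all N2 values, while those of end-3, tbx-37, lin-26 and pal-1 overlap.

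The endoderm is made by the E blastomere, whose fate is set by end-1 and its neighbour and relative end-3, both GATA factors with a short pulse of expression in the early embryo. end-1 lies on chromosome V from 13985128 to 13987074 and end-3 on the same chromosome from 14014695 to 14015980 (WBcel235, Ensembl release 115, as for all positions here). end-1 had 0, 2 and 2 counts in pmk-1 NaCl and 0, 2 and 6 in pmk-1 KCl, against 16, 30 and 19 in N2 NaCl and 26, 29 and 26 in N2 KCl. The highest pmk-1 library, with 0.62 CPM, thus stayed below the lowest N2 library, with 1.67 CPM. The log2 fold change of end-1 was -3.48 ± 0.58 in the mean of both salts (SE; edgeR adjusted p = 7.43e-04), -3.71 ± 0.86 in NaCl (adjusted p = 0.0101) and -3.26 ± 0.77 in KCl (adjusted p = 0.0121). Without pmk-1 KCl replicate 3, its highest pmk-1 library, end-1 was at -4.59 in KCl (adjusted p = 0.00917) and at -4.16 in the mean of both salts (adjusted p = 5.95e-04). With the ribosomal RNA share as a covariate it was at -4.81 in NaCl (adjusted p = 0.0249) and -4.13 in the mean (adjusted p = 0.00221). end-3 had 0, 1 and 6 counts in pmk-1 NaCl and 0, 3 and 6 in pmk-1 KCl, against 6, 6 and 10 in N2 NaCl and 9, 7 and 4 in N2 KCl. Replicate 3 of each pmk-1 group reached 6 counts, as many as several N2 libraries, so the groups overlap. An exact two-sided permutation test of 6 pmk-1 against 6 N2 libraries on log2(CPM + 1) gave a difference of -0.42 for end-3 (p = 0.0303). With no filter on low counts, edgeR gave -1.24 ± 0.71 (adjusted p = 0.196).

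The later gut regulators elt-2 and elt-7, GATA factors that keep intestinal cells differentiated through adult life, stood close to their N2 levels or above them. elt-2 averaged 9.32 and 14.1 CPM in pmk-1 NaCl and KCl, against 5.69 and 10.9 CPM in N2 NaCl and KCl, and its log2 fold change in the mean of both salts was 0.54 ± 0.26 (edgeR adjusted p = 0.107). elt-7 averaged 10.99 and 8.97 CPM in pmk-1, against 10.6 and 11.2 CPM in N2 (log2 fold change -0.13 ± 0.16, adjusted p = 0.516). Neither passed, but elt-2 passed as higher in pmk-1 without N2 KCl replicate 1 (0.71, edgeR adjusted p = 0.0464), without pmk-1 NaCl replicate 3 (0.70, adjusted p = 0.0289) and without the first replicate of every group (0.55, adjusted p = 0.0313). The difference between end-1 and these genes was not itself tested.

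The MS blastomere, the founder of much of the pharynx and body muscle, and the anterior pharynx derived from ABa are represented by ceh-51 and tbx-37. ceh-51 is a homeobox gene of the NK-2 kind that acts with the T-box gene tbx-35 in MS descendants (chromosome V, 18874133 to 18875982). It had 0, 9 and 1 counts in pmk-1 NaCl and 0, 6 and 26 in pmk-1 KCl, against 37, 51 and 44 in N2 NaCl and 40, 40 and 70 in N2 KCl. Every pmk-1 library lay below every N2 library, but the pmk-1 libraries differed widely among themselves, between 0 and 2.69 CPM. The fall passed in the mean of both salts (log2 fold change -2.84 ± 0.74, edgeR adjusted p = 0.00988) and in NaCl (-3.48 ± 1.12, adjusted p = 0.0388), but not in KCl (-2.19 ± 0.99, adjusted p = 0.125). The call in NaCl was narrow: it was lost without any one of the 6 N2 libraries or of pmk-1 NaCl replicates 1 and 3 (adjusted p 0.0511 to 0.0992), and with the ribosomal RNA share as a covariate (-4.84, adjusted p = 0.0613). Without pmk-1 KCl replicate 3 the fall in KCl passed (-4.02, adjusted p = 0.0282) and the mean of both salts was -3.77 (adjusted p = 0.00261), and without pmk-1 NaCl replicate 2 the value in NaCl was -5.97 (adjusted p = 0.0201) and that in the mean of both salts -4.07 (adjusted p = 0.00452).

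tbx-37 is a T-box gene that, together with its close relative tbx-38, mediates the response to Notch signalling that starts the anterior pharynx (chromosome III, 11224808 to 11227125, minus strand). It had 0, 10 and 1 counts in pmk-1 NaCl and 0, 8 and 22 in pmk-1 KCl, against 19, 28 and 18 in N2 NaCl and 18, 24 and 37 in N2 KCl. Its 22 counts in pmk-1 KCl replicate 3, 2.28 CPM, lie inside the N2 range of 1.58 to 3.71 CPM. tbx-37 did not pass in the mean of both salts (log2 fold change -1.85 ± 0.75, edgeR adjusted p = 0.0605), in NaCl (-2.34 ± 1.11, adjusted p = 0.133) or in KCl (-1.36 ± 1.00, adjusted p = 0.333). Without pmk-1 KCl replicate 3 the mean of both salts passed at -2.54 (adjusted p = 0.0242), and without pmk-1 NaCl replicate 2 at -3.15 (adjusted p = 0.0152); without that library the value in NaCl also passed at -4.97 (adjusted p = 0.0372). DESeq2 called the mean of both salts at -1.90 (adjusted p = 0.0445). tbx-38 averaged 0.31 and 0.86 CPM in pmk-1 NaCl and KCl, against 3.80 and 3.95 CPM in N2 NaCl and KCl, and fell in the mean of both salts (-2.87 ± 0.67, adjusted p = 0.00515). How the authors' counting divided reads between these similar genes is not given in the sources used here, so the value of each alone is uncertain.

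pha-4 encodes the FoxA factor that selects pharyngeal fate in descendants of both MS and ABa, and it is also active in adult intestine and gonad (chromosome V, 20753052 to 20760317). It had 74, 74 and 61 counts in pmk-1 NaCl and 67, 69 and 51 in pmk-1 KCl, against 171, 294 and 322 in N2 NaCl and 272, 336 and 465 in N2 KCl. All 6 pmk-1 libraries fell within 5.28 to 8.45 CPM, and the N2 libraries spread from 19.04 to 46.6 CPM. Unlike the early genes, pha-4 was present in both pmk-1 first replicates at 8.45 and 6.94 CPM. The log2 fold change was -2.09 ± 0.18 in the mean of both salts (edgeR adjusted p = 3.04e-05), -1.68 ± 0.25 in NaCl (adjusted p = 0.00248) and -2.51 ± 0.25 in KCl (adjusted p = 3.03e-04). With the ribosomal RNA share as a covariate the value in NaCl was -1.001 (adjusted p = 0.0378).

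hlh-1 encodes the MyoD homolog of body wall muscle precursors in the MS, C and D lineages (chromosome II, 4518574 to 4522528). It had 16, 7 and 11 counts in pmk-1 NaCl and 20, 11 and 30 in pmk-1 KCl, against 57, 102 and 92 in N2 NaCl and 81, 98 and 121 in N2 KCl. The highest pmk-1 library, with 3.11 CPM, lay below the lowest N2 library, with 6.35 CPM. hlh-1 fell by 2.45 ± 0.30 on the log2 scale in the mean of both salts (edgeR adjusted p = 2.00e-04), by 2.65 ± 0.43 in NaCl (adjusted p = 0.00375) and by 2.26 ± 0.42 in KCl (adjusted p = 0.00489). An exon of hlh-1 shares 68 bp with B0304.4 on the opposite strand, and the strandedness of the libraries is not given in the sources used here.

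Epidermal fate is set by elt-1, a GATA factor of the ectoderm (chromosome IV, 9614995 to 9620280), and kept by lin-26, a zinc-finger gene that is also active in the somatic gonad (chromosome II, 7682198 to 7684764). elt-1 had 90, 77 and 47 counts in pmk-1 NaCl and 78, 84 and 124 in pmk-1 KCl, against 218, 276 and 306 in N2 NaCl and 255, 302 and 405 in N2 KCl. No pmk-1 library exceeded 12.8 CPM and no N2 library was under 24.3 CPM. The log2 fold change of elt-1 was nearly equal in the salts, -1.69 ± 0.27 in NaCl (edgeR adjusted p = 0.00364) and -1.73 ± 0.27 in KCl (adjusted p = 0.00272), and -1.71 ± 0.19 in their mean (adjusted p = 1.42e-04). lin-26 had 472, 816 and 707 counts in pmk-1 NaCl and 583, 898 and 787 in pmk-1 KCl, against 803, 922 and 1161 in N2 NaCl and 957, 1058 and 1077 in N2 KCl. Its lowest values, 53.9 and 60.4 CPM, were those of the pmk-1 first replicates, and the later pmk-1 libraries, at 81.5 to 92.4 CPM, came close to the N2 range of 89.4 to 108 CPM. lin-26 fell by 0.37 ± 0.13 on the log2 scale in the mean of both salts (adjusted p = 0.0372), but did not pass in NaCl (-0.31 ± 0.19, adjusted p = 0.226) or KCl (-0.44 ± 0.19, adjusted p = 0.107). That call was lost without any one of N2 KCl replicates 1, 2 and 3, N2 NaCl replicates 2 and 3 and pmk-1 KCl replicate 1 (adjusted p 0.0527 to 0.0816). Without the first replicate of every group, the value was -0.24 (adjusted p = 0.0139), and lin-26 passed in KCl as well (-0.29, adjusted p = 0.0366). It also passed in KCl without pmk-1 NaCl replicate 1 (-0.41, adjusted p = 0.0225). lin-26 shares 156 bp of exon with lir-1 on the same strand, so part of its counts may belong to that gene.

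pal-1 encodes the Caudal homolog that specifies the C and D blastomeres, and its mRNA is laid down in oocytes, where it is not translated (chromosome III, 4804688 to 4809576, minus strand; 66 bp of exon overlap metl-5 on the opposite strand). It had 470, 868 and 835 counts in pmk-1 NaCl and 708, 1224 and 1036 in pmk-1 KCl, against 950, 1103 and 1413 in N2 NaCl and 1125, 1299 and 1280 in N2 KCl. The pmk-1 first replicates were again the lowest, at 53.6 and 73.3 CPM, against 98.2 to 115.1 CPM in the later pmk-1 libraries and 106 to 128 CPM in N2. The difference did not pass in the mean of both salts (log2 fold change -0.38 ± 0.16, edgeR adjusted p = 0.0679), in NaCl (-0.44 ± 0.22, adjusted p = 0.154) or in KCl (-0.31 ± 0.22, adjusted p = 0.320). With the replicate number as a block, pal-1 passed in NaCl (-0.48, edgeR adjusted p = 0.0256), as it did there without the first replicate of every group (-0.29, adjusted p = 0.0397). In the mean of both salts it also passed without any one of pmk-1 KCl replicate 2 and pmk-1 NaCl replicates 2 and 3 (adjusted p 0.0378 to 0.0482), without the first replicate of every group (-0.22, adjusted p = 0.0216), and in DESeq2 (-0.40, adjusted p = 0.0419).

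hch-1 showed the steepest difference of the 10 genes (chromosome X, 14696411 to 14699977, minus strand). It had 0, 7 and 0 counts in pmk-1 NaCl and 0, 2 and 2 in pmk-1 KCl, against 88, 284 and 267 in N2 NaCl and 243, 304 and 532 in N2 KCl. Summed over the libraries this was 11 counts in pmk-1 and 1718 counts in N2. In CPM, hch-1 averaged 0.20 ± 0.31 in pmk-1 and 28.3 ± 14.2 in N2 (SD, n = 6 each). The 3 pmk-1 libraries with no count allow up to 0.31 to 0.36 CPM, taking 3 counts as the limit of a 0, which covers counting error only. The log2 fold change was -7.07 ± 0.63 in the mean of both salts (edgeR adjusted p = 4.25e-05), -6.21 ± 0.86 in NaCl (adjusted p = 0.00209) and -7.93 ± 0.93 in KCl (adjusted p = 7.50e-04). The size of these values and of the ratio of mean CPM rests on pmk-1 NaCl replicate 2, which holds 7 of the 11 pmk-1 counts; without that library the value was -10.7 in NaCl (adjusted p = 0.00476) and -9.29 in the mean of both salts (adjusted p = 1.41e-04). With the ribosomal RNA share as a covariate these values were -4.79 (adjusted p = 0.0262) and -6.33 (adjusted p = 4.03e-04). Fitted folds of a gene this close to 0 depend on the prior count of the fit. N2 NaCl replicate 1, with 9.80 CPM, was the lowest N2 library and N2 KCl replicate 3, with 53.3 CPM, the highest.

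**Figure D2:**
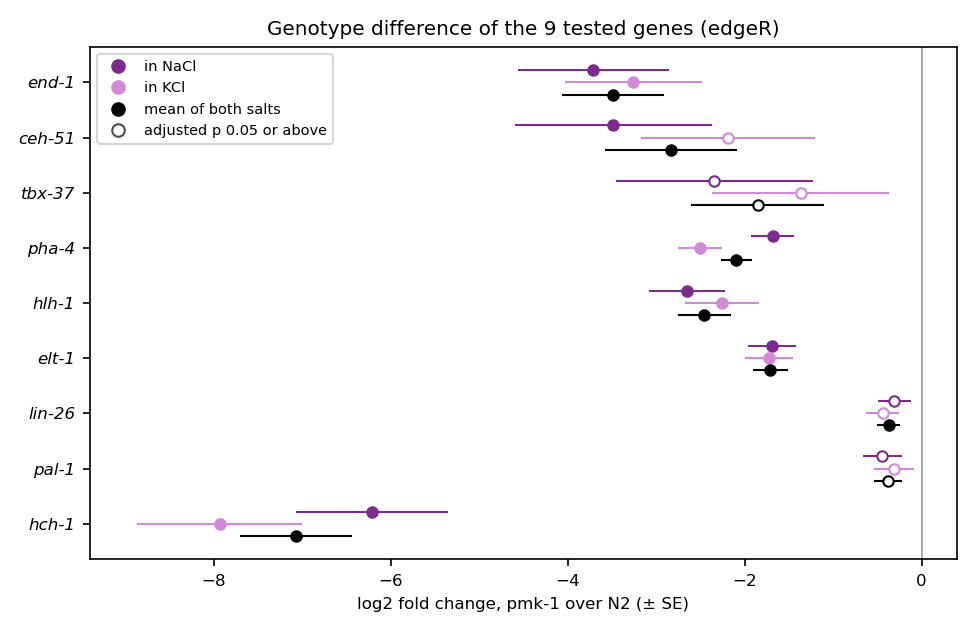
Log2 fold change of pmk-1 over N2 for the 9 tested genes from the edgeR fit, with bars of 1 SE, in NaCl, in KCl and in the mean of both salts; open circles did not pass at adjusted p under 0.05. All 27 values are negative, from -7.93 for hch-1 in KCl to -0.31 for lin-26 in NaCl.

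Checked without the count model, by the exact two-sided permutation test of 6 pmk-1 against 6 N2 libraries on log2(CPM + 1), end-1, ceh-51, pha-4, hlh-1, elt-1 and hch-1 each gave p = 0.0022, the smallest that this design allows. lin-26 gave p = 0.0043, tbx-37 p = 0.0087 and pal-1 p = 0.0130 in the same exact test. The 6 genes at the smallest p are those whose genotypes did not overlap, and over all tested genes 11.9% were lower in pmk-1 without overlap. Within a salt, 3 against 3 libraries cannot go below an exact p of 0.10.

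The early lineage genes and hch-1 mark opposite ends of embryogenesis, and both were low in pmk-1. The summed counts of end-1, end-3, ceh-51 and tbx-37 were 0, 22 and 10 in pmk-1 NaCl and 0, 19 and 60 in pmk-1 KCl, against 78, 115 and 91 in N2 NaCl and 93, 100 and 137 in N2 KCl. In both pmk-1 first replicates all 4 early genes and hch-1 were at 0, so that only 5 of the 10 genes had a count there, whereas pmk-1 NaCl replicate 3 had 9 of 10 and every other library had all 10. pmk-1 KCl replicate 3 had the most early counts of the pmk-1 libraries and only 2 counts of hch-1. Set against pha-4 within the same library, hch-1 had 0 to 9.46 counts per 100 pha-4 counts in pmk-1 and 51.5 to 114 in N2. The early 4 genes had 0 to 118 counts per 100 pha-4 counts in pmk-1, against 28.3 to 45.6 in N2. The 118 was that of pmk-1 KCl replicate 3, and the other pmk-1 libraries had 0 to 29.7. pha-4 is also active in adult tissue, and it had 74 and 67 counts in the pmk-1 first replicates of NaCl and KCl. How much of its count came from embryos was not tested, so these ratios do not compare embryos alone. Without the first replicate of every group, the log2 fold change in the mean of both salts was -2.995 for end-1, -2.34 for ceh-51 and -1.38 for tbx-37, each at an edgeR adjusted p under 0.05 (2.34e-04, 0.00200 and 0.0389), and all 9 tested genes were called.

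**Figure D3:**
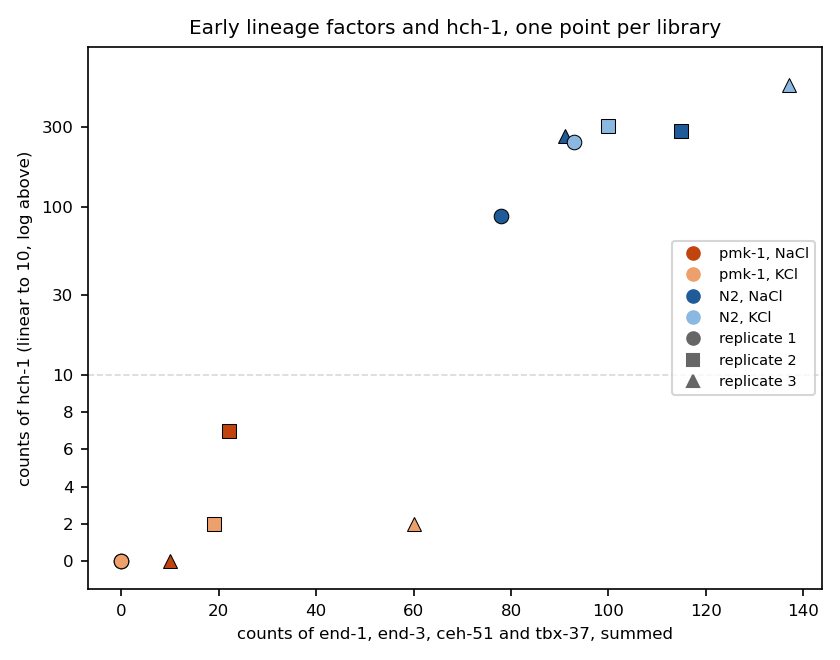
Counts of hch-1 (vertical axis, linear to 10 and logarithmic above) against the summed counts of the early genes end-1, end-3, ceh-51 and tbx-37 (horizontal axis), 1 point per library, coloured by group, with marker shapes for replicates. Both pmk-1 first replicates lie on each other at 0 and 0; the other pmk-1 libraries reach 60 early counts with at most 7 hch-1 counts, and the N2 libraries have 78 to 137 early counts and 88 to 532 hch-1 counts.

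Per kb of exon, the order of levels was led in every group by pal-1 and then lin-26. pal-1 stood at 57.04 and 66.6 CPM per kb in pmk-1 NaCl and KCl, against 77.6 and 82.8 CPM per kb in N2 NaCl and KCl. lin-26 stood at 36.4 and 35.5 CPM per kb in pmk-1 NaCl and KCl, against 45.0 and 48.1 CPM per kb in N2 NaCl and KCl. In N2 a middle group of pha-4, elt-1 and hch-1 followed, at 12.03, 12.03 and 10.8 CPM per kb in NaCl and at 16.5, 14.4 and 18.4 CPM per kb in KCl, differences within the SD of hch-1 (5.21 and 7.93). hlh-1 was next in N2 (6.98 and 8.30 CPM per kb in NaCl and KCl), ahead of ceh-51, end-1 and tbx-37, and end-3 was last at 0.84 and 0.77 CPM per kb. In pmk-1 the order differed mainly by hch-1, which was last of the 10 at 0.14 and 0.07 CPM per kb in NaCl and KCl. pha-4 and elt-1 were at 2.89 to 4.34 CPM per kb there and did not differ beyond their spread.

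The wider programme around these genes was read from lists of lineage regulators, counted without the 10 genes, in the mean of both salts. These lists too were chosen with earlier results of these data known. Genes low in pmk-1 could pass the filter through N2 alone, which can partly set the shares that fell and the medians. In pmk-1 NaCl and KCl, tbx-8 averaged 0.40 and 0.17 CPM, vab-7 0.39 and 0.07 CPM and hlh-14 0.12 and 0.36 CPM. There cnd-1 averaged 0.11 and 0.20 CPM and ceh-36 0.04 and 0.44 CPM. For such genes a rise could hardly be seen. Among mesodermal regulators 6 of 6 tested fell (median log2 fold change -2.14), among them tbx-8 (-4.26 ± 0.60), the even-skipped homolog vab-7 (-3.77 ± 0.46) and unc-120, an SRF-like muscle factor (-1.13 ± 0.13). Among genes of pharynx development 4 of 5 fell (median -1.05), among them pha-1 (-1.05 ± 0.17) and tbx-2 (-1.08 ± 0.26), while peb-1 stood at 0.13 ± 0.18 and did not pass; in the separate salts 2 fell in NaCl and 3 in KCl, and with the ribosomal RNA share as a covariate 2 of 5 fell in the mean. nhr-67, another of the 4, differed in direction between the salts, with 15.1 CPM in pmk-1 against 7.90 CPM in N2 in NaCl (0.93 ± 0.38, edgeR adjusted p = 0.0872) and 0.54 CPM in pmk-1 against 4.08 CPM in N2 in KCl (-2.89 ± 0.47, adjusted p = 0.00313). Among regulators of epidermis and other ectoderm 11 of 13 fell (median -1.83). They included the nuclear receptor nhr-25 (-3.46 ± 0.32) and the proneural genes hlh-14 (-4.42 ± 0.54) and cnd-1 (-4.39 ± 0.61), and the 1 gene that rose was elt-3 (0.98 ± 0.15), a GATA factor also active in adult epidermis. Of 13 Hox and axial patterning genes 7 fell, led by ceh-36 (-5.33 ± 0.64), die-1 (-1.55 ± 0.22), the labial homolog ceh-13 (-1.85 ± 0.30) and sem-2 (-1.40 ± 0.23), and 1 rose; with the ribosomal RNA share as a covariate 5 fell. Within a salt the mesodermal list had 4 of 6 lower in NaCl and 5 in KCl, the epidermal and ectodermal list 10 of 13 and 7, and the Hox and axial list 4 of 13 and 6. Of the endoderm list only elt-2 and elt-7 were tested beside end-1, and neither passed. All these calls were made at an edgeR adjusted p under 0.05 over all tested genes, of which 19.5% fell and 27.2% rose in the mean of both salts. In NaCl 10.1% of all tested genes fell and in KCl 9.18% did. With the ribosomal RNA share as a covariate 2191 of 13353 fell in the mean.

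Genes with their first expression in the early embryo were lower as well. Of 22 tested early zygotic genes 19 fell and 1, sdz-24, rose, with a median of -2.16, where 19.5% of all tested genes fell. Of the 31 listed, genes low in pmk-1 could pass the filter through N2 alone, which can partly set the share that fell. In NaCl 14 of the 22 fell (median -2.87), and in KCl 6 fell, 1 rose and 15 did not pass (median -1.34). The 4 with the smallest adjusted p were ceh-32 (-2.92 ± 0.23), ceh-27 (-4.12 ± 0.37), sdz-10 (-3.52 ± 0.52) and mls-2 (-4.29 ± 0.68), of which ceh-27, ceh-32 and mls-2 are homeobox genes. The summed level of all 31 listed early zygotic genes was 51.02 to 82.7 CPM in pmk-1 NaCl and 59.1 to 213 CPM in pmk-1 KCl, against 279 to 386 CPM in N2 NaCl and 317 to 536 CPM in N2 KCl. The 213 CPM was again that of pmk-1 KCl replicate 3.

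Maternal fate factors, whose RNA comes from the mother's germ line, had smaller values. Their median was -0.38, and 11 of 27 fell, none rose, and 16 did not pass, where 19.5% of all tested genes fell and 27.2% rose. In each salt alone 3 of 27 fell, near the share of all tested genes (10.1% in NaCl and 9.18% in KCl). The clearest were components of the Wnt asymmetry pathway, namely the TCF homolog pop-1 (-1.12 ± 0.14), its coactivator sys-1 (-1.005 ± 0.17), the kinase lit-1 (-0.59 ± 0.12) and the beta-catenin wrm-1 (-0.36 ± 0.10). The count moved with the fit. With the ribosomal RNA share as a covariate 7 of 27 fell, where 2191 of 13353 tested genes fell. Without any one of N2 KCl replicate 3, N2 NaCl replicates 2 and 3 or pmk-1 KCl replicate 1, 4 or 5 fell. In those fits 1991 to 2256 of 13535 to 13888 tested genes fell. The summed level of the list was lowest in the pmk-1 first replicates, 3572 CPM in NaCl and 5291 CPM in KCl, as pal-1 and lin-26 were, against 6726 to 7319 CPM in the later pmk-1 libraries and 7271 to 8766 CPM in N2.

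Around hch-1, the list of genes of eggshell exit and late embryonic epidermis had more genes that fell than rose. Of 25 tested, 14 fell, 4 rose and 7 did not pass, with a median of -2.14, where 19.5% of all tested genes fell and 27.2% rose. In NaCl 12 fell and 2 rose (10.1% and 16.7% of all tested genes), and in KCl 14 fell and none rose (9.18% and 15.2%). Here too, genes low in pmk-1 could pass the filter through N2 alone. With DESeq2 and with no filter on low counts 2 more genes were tested and the median was -1.14. Those with the smallest adjusted p encode proteins of the embryonic apical matrix or secreted by epidermis, namely fbn-1 (-4.85 ± 0.38), lpr-3 (-4.33 ± 0.34), sym-1 (-4.12 ± 0.33) and let-4 (-3.71 ± 0.29). sym-1 averaged 7.04 and 3.20 CPM in pmk-1 NaCl and KCl, against 66.3 and 103 CPM in N2 NaCl and KCl. The 4 that rose were vab-9, dpy-8, nas-7 and nas-37, the last of which encodes an astacin of larval molting. Between 1 and 4 genes rose when each library was left out in turn, where 3126 to 3943 of 13535 to 13901 tested genes rose. Of 17 other tested genes of the astacin family to which HCH-1 belongs, 8 rose, 1 fell and 8 did not pass (median 0.80), where 27.2% of all tested genes rose. In NaCl 3 of the 17 rose and 2 fell (16.7% and 10.1% of all tested genes), and in KCl 1 rose and 1 fell (15.2% and 9.18%). The 1 that fell was nas-11 (-1.66 ± 0.17), and nas-4 (2.10 ± 0.47) and nas-20 (0.87 ± 0.20) had the smallest adjusted p of those that rose. Without pmk-1 NaCl replicate 1, 4 of 18 rose, where 3128 of 13563 tested genes rose. Without pmk-1 NaCl replicate 3, 13 of 23 rose, where 3943 of 13895 tested genes rose.

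**Figure D4:**
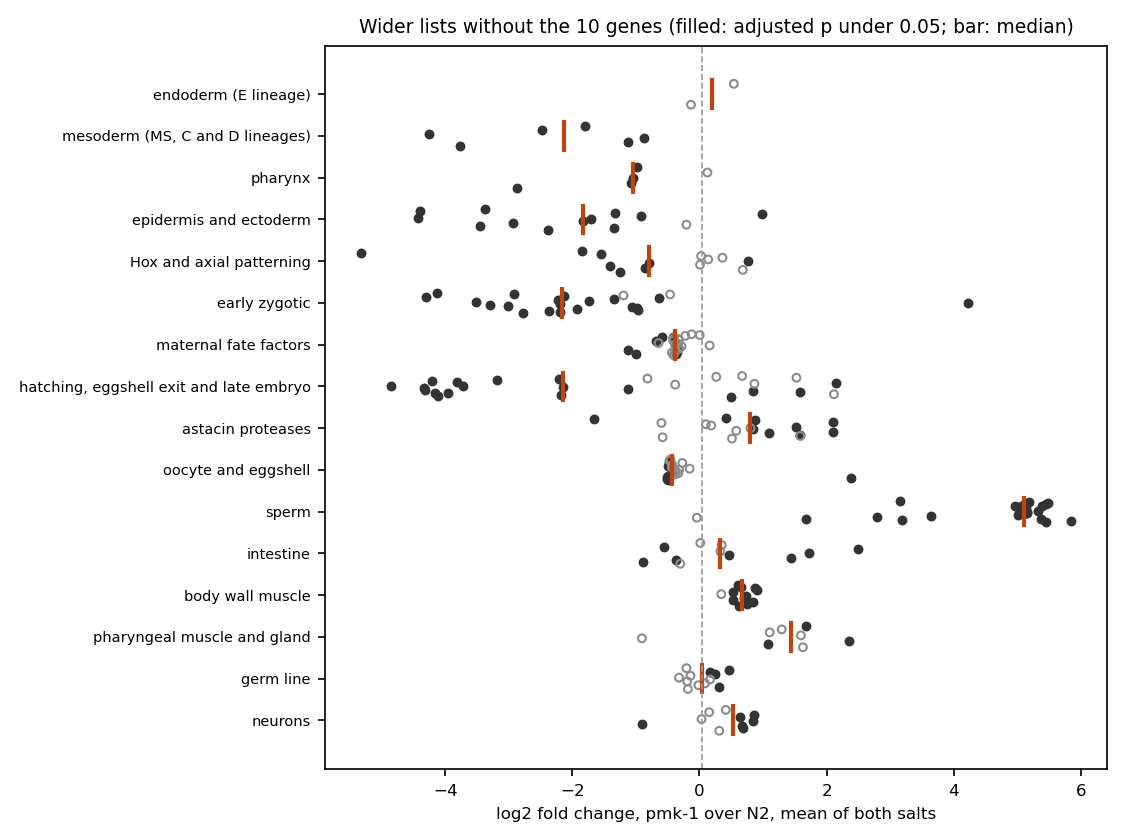
Log2 fold change of pmk-1 over N2, mean of both salts, of each tested gene of 16 lists counted without the 10 genes; filled points passed at edgeR adjusted p under 0.05, the vertical bars are list medians and the dashed line is the median of all tested genes, 0.05. The medians of the mesoderm, pharynx, ectoderm, early zygotic and late embryo lists lie between -2.16 and -1.05, and that of the sperm list at 5.11.

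Markers of some other cell types moved with genotype in the mean of both salts, where 27.2% of all tested genes rose and 19.5% fell. Of 25 tested sperm genes 24 rose in pmk-1 (median 5.11), and the summed level of the 27 listed was 709 to 2234 CPM in pmk-1 NaCl and 624 to 1418 CPM in pmk-1 KCl, against 33.8 to 113 CPM in N2 NaCl and 25.4 to 83.3 CPM in N2 KCl. The highest sperm sums, 2234 and 1418 CPM, were those of the pmk-1 first replicates, in which the early genes and hch-1 were at 0. Among 19 oocyte and eggshell genes 8 fell and 1 rose (median -0.43). From 3 to 5 were lower without any one of N2 KCl replicates 2 and 3, N2 NaCl replicates 2 and 3 and pmk-1 KCl replicate 1. In those fits 1991 to 2256 of 13535 to 13888 tested genes fell. Without pmk-1 NaCl replicate 2 or 3, 13 were lower, where 2592 of 13873 and 2889 of 13895 tested genes fell. The summed level of this list was 5980 and 9010 CPM in the pmk-1 first replicates, against 10423 to 12431 CPM in the later pmk-1 libraries and 13209 to 14088 CPM in N2. Of 12 body wall muscle genes 11 rose (median 0.68), and in each salt alone 3 of 12 did, where 16.7% of all tested genes rose in NaCl and 15.2% in KCl. Of 11 intestinal genes 4 were higher and 3 lower (median 0.33), and germ line genes had a median of 0.04, with 4 of 12 higher. In the germ line list 2 were higher without any one of N2 KCl replicates 2 and 3, N2 NaCl replicates 2 and 3 and pmk-1 KCl replicate 3. In those fits 3126 to 3775 of 13872 to 13888 tested genes rose. Of 8 pharyngeal muscle and gland genes 3 rose (median 1.45), and of 10 neuronal genes 5 rose and 1 fell (median 0.53). In the pharyngeal muscle and gland list 6 rose without pmk-1 KCl replicate 2, where 3781 of 13822 tested genes rose. Without pmk-1 KCl replicate 3, 7 rose, where 3775 of 13885 tested genes rose. The part of these cell types in the differences of the embryonic genes was not tested.

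None of the embryonic genes passed the test between the salts. In pmk-1, NaCl against KCl, 0 of 9 passed (2.71% of all tested genes did), and DESeq2 also called 0. By edgeR 0 of the 9 had an unadjusted p under 0.05, where 1792 of 13353 tested genes did. The values ran from -1.46 ± 1.16 for ceh-51 to 0.95 ± 1.34 for hch-1 on the log2 scale (edgeR adjusted p 0.579 to 0.943). The negative values of end-1, ceh-51, tbx-37 and elt-1 rested on pmk-1 KCl replicate 3; without it they were 0.57, 0.35, 0.09 and 0.01. The positive value of hch-1 rested on pmk-1 NaCl replicate 2; without it the value was -3.53. In N2, 0 of 9 passed (0.187% of all tested genes did), and DESeq2 also called 0. By edgeR 0 had an unadjusted p under 0.05, where 570 of 13353 tested genes did. All 9 values were negative there, from -0.77 ± 0.59 for hch-1 to -0.09 ± 0.22 for pal-1 (edgeR adjusted p = 1.00 for each), and those of ceh-51 and tbx-37 were 0.17 and 0.09 without N2 KCl replicate 3. In the lists around them, nhr-67 of the pharynx list was higher in NaCl than in KCl in pmk-1 (4.78 ± 0.48, edgeR adjusted p = 3.53e-04), as was eff-1, a cell fusion gene of the late embryo list (2.33 ± 0.55, adjusted p = 0.0496), and act-5, an intestinal actin (1.46 ± 0.25, adjusted p = 0.00887).

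pha-4 was the 1 gene whose salt groups did not overlap in pmk-1, at 8.45, 8.38 and 7.41 CPM in NaCl against 6.94, 6.49 and 5.28 CPM in KCl, where 9.78% of all tested genes were higher in NaCl without overlap. In N2 it stood at 19.04, 30.6 and 28.3 CPM in NaCl against 27.9, 32.01 and 46.6 CPM in KCl, groups that overlap. Neither difference passed the test, with log2 fold changes of 0.37 ± 0.25 in pmk-1 (edgeR adjusted p = 0.579) and -0.45 ± 0.23 in N2 (adjusted p = 1.00). The interaction of salt and genotype passed for 0 of the 9 genes (0.0374% of all tested genes did), and DESeq2 also called 0. pha-4 was the 1 of the 9 with an unadjusted edgeR p under 0.05 (0.82 ± 0.34, adjusted p = 0.903). Of all 13353 tested genes, 669 had an unadjusted p under 0.05 there. Between libraries of the same replicate number, pal-1 was lower in NaCl in all 6 pairs, by 0.08 to 0.44 in pmk-1 and by 0.05 to 0.12 in N2 on the log2(CPM + 1) scale, and its fitted salt values did not pass. The share of all tested genes with 1 sign in all 6 pairs was not counted.

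**Figure D5:**
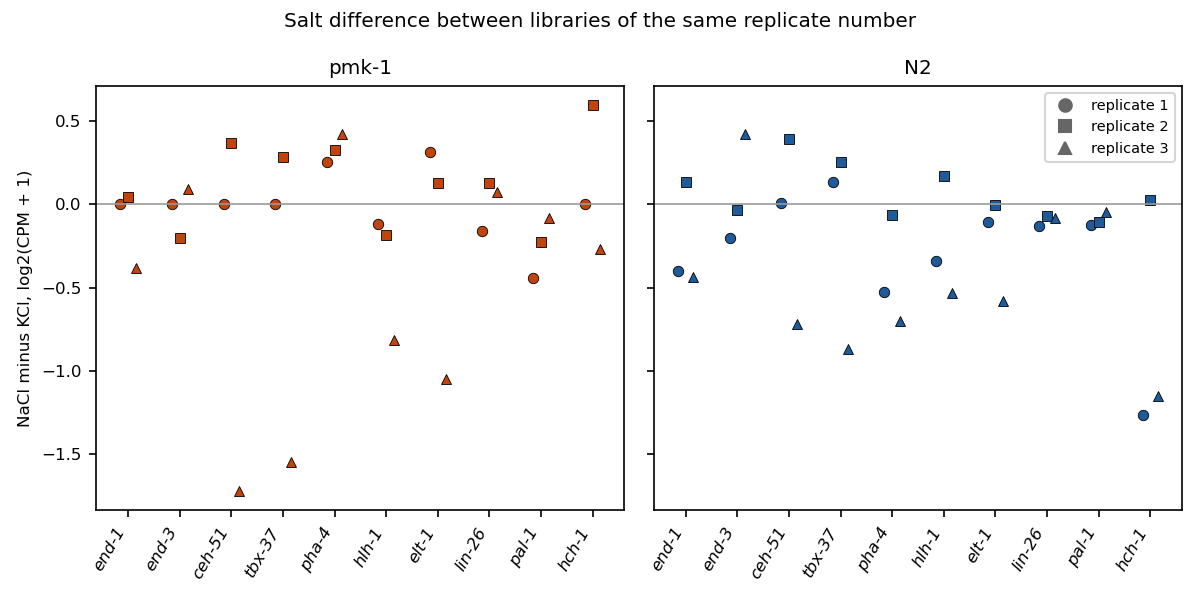
NaCl minus KCl difference in log2(CPM + 1) between libraries of the same replicate number, for the 10 genes, in pmk-1 (left) and N2 (right); marker shapes are replicates 1 to 3. The pha-4 differences are all above 0 in pmk-1 (0.25 to 0.42) and all below 0 in N2 (-0.70 to -0.06). Those of pal-1 are below 0 in all 6 pairs, those of hlh-1 in all 3 pmk-1 pairs and those of elt-1 and lin-26 in all 3 N2 pairs; the rest fall on both sides of 0 or at 0.

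Several genes outside the 10 followed the mean of the 8 tested fate factors closely across the 12 libraries, which fall into 6 of each genotype, so that any gene much lower in pmk-1 scores high. Among 7350 named genes with a mean of at least 1 CPM, 496 had a Pearson r over 0.9 with that mean. The 10 most alike (r 0.989 to 0.992) were the F-box genes fbxb-65, fbxc-51, fbxb-45, fbxc-39 and fbxc-40, the high-mobility-group gene hmg-11, gadr-3, the lectin gene clec-196, the forkhead gene fkh-2 and zeel-1, the antidote of a paternal-effect toxin. fkh-2 averaged 0.49 CPM in pmk-1 and 5.92 CPM in N2. Only 2 of these 10 were among the 10 most alike without the first replicates. With hch-1, 372 genes had r over 0.9, and the 5 most alike (r 0.990 to 0.996) were the cuticle collagens dpy-14 and dpy-17, the chondroitin proteoglycan genes cpg-20 and cpg-24 and the F-box gene fbxc-34. dpy-14 averaged 0.64 CPM in pmk-1 and 94.6 CPM in N2, and dpy-17 averaged 2.53 CPM in pmk-1 and 93.8 CPM in N2. Only 1 of these 5 was among the 5 most alike without the first replicates.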

How the data were processed

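Whole-animal total RNA of 12 libraries was sequenced as 150 bp pairs, per the labels. The authors deposited expected counts per gene as whole numbers; RSEM 1.3.3, STAR 2.7.1a, DESeq2 1.40.2 and R 4.3.1 appear in the submitters' processing notes without their roles, and build, annotation and strand setting are not given in the sources used. Of 46904 gene IDs, 46817 were matched to Ensembl release 115. The counts were fitted in R 4.3.3 with edgeR 4.0.16 (filterByExpr, TMM, 1 mean for each of 4 groups, quasi-likelihood test, Benjamini-Hochberg adjustment over 13353 genes, threshold 0.05). The biological coefficient of variation was 0.30. SEs are the log2 fold change over the root of F. CPM were scaled by TMM.

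The same test was checked on simulated data with known fold changes. Alternatives were DESeq2 1.42.0, other scalings, no filter, fewer groups in the fit, a replicate block, the ribosomal RNA share as a covariate, and leaving out libraries. Labels call the samples biological replicates and name no shared batch; where they share a culture, p-values measure only the spread between these samples. Replicate numbers were taken to pair libraries where the deviations of every pair correlated over 0.1, which held in pmk-1 against N2 in NaCl (0.22 to 0.40), between salts in pmk-1 (0.46 to 0.75) and between salts in N2 (0.21 to 0.64), but not in pmk-1 against N2 in KCl (0.07 to 0.43). In each comparison held to pair, replicate 2 correlated more with another number than with its own. The values were 0.235 against 0.224 in NaCl, 0.559 against 0.463 between salts in pmk-1 and 0.227 against 0.209 between salts in N2. The pairing of replicate 2 is thus not shown. The 10 genes and the 16 lists (275 distinct genes matched, 5 names unmatched) were chosen with earlier results of these data known. From each list up to 4 genes with the smallest adjusted p in the mean of both salts were eligible to be named, with those that passed between salts; tbx-38, elt-2, elt-7, elt-3, peb-1, sdz-24 and the late embryo genes that rose are named after their values were seen. The genes most alike are those with the highest Pearson r of log2(CPM + 1) over 12 libraries. No sequences are printed.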

Additional observations from a re-analysis of the deposited data

Results flagged for a closer look

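The NaCl minus KCl difference of pha-4 had opposite signs in the genotypes in every numbered pair of libraries. pha-4 was picked from the genes described here because its salt difference differed between the genotypes, so the pattern is a description only. The share of all tested genes with such a pattern was not counted, and the pairing of replicate 2 is not shown. The fitted salt difference of pha-4 did not pass in pmk-1 or in N2. In log2(CPM + 1), NaCl minus KCl was 0.25, 0.32 and 0.42 in pmk-1 for replicates 1, 2 and 3, and -0.53, -0.06 and -0.70 in N2. The fitted interaction of salt and genotype was 0.82 ± 0.34 on the log2 scale (SE), which did not pass (edgeR adjusted p = 0.903). It stayed between 0.54 and 0.97 when each library was left out in turn and between 0.68 and 1.46 under the other alternatives.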

How the results depend on the processing

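The number of the 9 tested genes called was 5 to 7 in NaCl, 5 to 6 in KCl and 6 to 9 in the mean of both salts when each library was left out in turn, and 0 between salts and for the interaction under every alternative run. Of the 13535 to 13901 genes tested with a library left out, 625 to 1740 fell in NaCl, 568 to 1787 in KCl and 1991 to 2889 in the mean. DESeq2 called 6, 5 and 9 in NaCl, in KCl and in the mean, where 1849, 1554 and 3100 of 19456 genes fell. Leaving out the first replicates gave 7, 6 and 9, where 2081, 1922 and 2974 of 13191 tested genes fell. With the replicate block, whose numbers pair the libraries in NaCl but not in KCl, 7, 7 and 9 were called. Of 13353 tested genes, 2221 fell in NaCl, 1959 in KCl and 3272 in the mean with the block. In the mean of both salts tbx-37 (-2.01, edgeR adjusted p = 0.0182) and pal-1 (-0.41, adjusted p = 0.00694) passed. In KCl ceh-51 (-2.38, edgeR adjusted p = 0.0348) and lin-26 (-0.46, adjusted p = 0.0207) passed. elt-2 passed as higher in pmk-1 in the mean (0.54, edgeR adjusted p = 0.0479). With the block, 22 of 27 maternal and 17 of 19 oocyte and eggshell genes were called, where 4060 of all tested genes rose and 3272 fell in the mean of both salts. No call between salts changed for the 9 genes. None of the 324 genotype values of the 9 genes with a library left out changed sign. Between salts in pmk-1, lin-26 was -0.17 with library totals and -0.18 with the ribosomal RNA covariate. When each library was left out in turn, the pmk-1 salt values ran from -1.29 to 0.57 for end-1, -3.96 to 0.35 for ceh-51, -3.86 to 0.092 for tbx-37, -0.46 to 0.0072 for elt-1, -0.16 to 0.18 for lin-26 and -3.53 to 1.47 for hch-1. In N2 they ran from -0.33 to 0.17 for ceh-51 and -0.50 to 0.093 for tbx-37, and the interaction of hch-1 from -2.78 to 2.22. Library totals alone shifted the median of all genes by -0.11 in NaCl and -0.21 between salts in pmk-1 on the log2 scale; changes are relative to that. The causes were not tested. Counts of 0 to 30 limit end-1, end-3, and, in pmk-1, ceh-51, tbx-37, hlh-1 and hch-1.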
